A study of Mus musculus with 6 samples.

Results

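Chromatin and DNA methylation regulators were examined in a pair of progenitor populations sorted from mouse bone marrow, as 52 genes chosen by name: DNA methyltransferases and TET dioxygenases, Polycomb and Trithorax genes, other histone methyltransferases, demethylases, deacetylases, chromatin remodellers and acetyltransferases. All 52 were found in the table of 22271 genes, and all 52 passed the filter on low counts that left 12850 genes for testing. The first population, labelled CD27 high MODP, and the second, labelled CD27 low MOP, were both sorted by flow cytometry from the marrow of C57BL/6JRj mice, with 3 libraries each. All sample titles carry WT, and no treatment, sex or age was found in the labels. Each library is bulk RNA of many cells, so a lower value cannot be told apart as fewer cells of a type or less RNA per cell. Whether replicates came from different animals is not stated in the labels. The p-values therefore reflect only how these 6 libraries vary, and that variation may be technical.

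DNA methyltransferases add methyl groups to cytosines, Dnmt3a and Dnmt3b at new sites and Dnmt1 behind the replication fork, and TET dioxygenases start their removal. Polycomb complexes lay down repressive marks on histones (PRC2 methylates H3 lysine 27, PRC1 ubiquitinates H2A), whereas MLL-family methyltransferases and the acetyltransferases p300 and CBP mark active promoters and enhancers. Demethylases and deacetylases take such marks away, and SWI/SNF and CHD remodellers move nucleosomes. In blood formation several of these genes, among them Dnmt3a, Tet2, Asxl1, Ezh2 and Kmt2a, are known for setting the balance between self-renewal and differentiation of stem and progenitor cells, and for their mutations in myeloid leukaemias.

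Promoter sequences are shown for the 3 lower members Kdm5b, Dnmt3b and Tet1 and for the higher member Ep300, as examples from each direction with a single promoter entry, chosen after their values were seen. Each is the 250 bases before the RefSeq transcription start on the gene's strand, in build GRCm38.p6, in lower case with GC boxes in capitals (GGGCGG, the site bound by Sp and Klf factors, or its reverse complement CCGCCC; adjoining matches may run together). A match is a description of the letters only.
Kdm5b, chr1:134559928-134560177, plus strand: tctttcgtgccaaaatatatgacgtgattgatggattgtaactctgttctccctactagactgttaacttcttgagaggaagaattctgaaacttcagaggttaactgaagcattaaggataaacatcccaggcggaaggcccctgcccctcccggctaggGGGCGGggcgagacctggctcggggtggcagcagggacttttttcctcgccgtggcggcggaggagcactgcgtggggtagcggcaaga
Dnmt3b, chr2:153649199-153649448, plus strand: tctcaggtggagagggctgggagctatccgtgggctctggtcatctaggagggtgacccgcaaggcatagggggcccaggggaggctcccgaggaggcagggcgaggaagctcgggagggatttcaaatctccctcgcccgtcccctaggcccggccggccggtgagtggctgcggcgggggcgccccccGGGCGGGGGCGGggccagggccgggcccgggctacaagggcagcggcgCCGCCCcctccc
Tet1, chr10:62887325-62887574, minus strand: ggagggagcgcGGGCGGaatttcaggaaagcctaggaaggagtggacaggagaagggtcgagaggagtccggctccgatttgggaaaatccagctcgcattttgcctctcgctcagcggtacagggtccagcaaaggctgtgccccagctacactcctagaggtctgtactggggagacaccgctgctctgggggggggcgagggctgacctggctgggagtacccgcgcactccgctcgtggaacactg
Ep300, chr15:81585964-81586213, plus strand: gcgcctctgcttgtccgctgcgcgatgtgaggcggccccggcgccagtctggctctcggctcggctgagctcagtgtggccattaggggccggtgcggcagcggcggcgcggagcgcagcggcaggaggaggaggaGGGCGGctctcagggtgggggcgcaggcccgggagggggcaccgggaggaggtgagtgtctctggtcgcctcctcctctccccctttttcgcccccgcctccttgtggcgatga
The windows of Kdm5b, Dnmt3b, Tet1 and Ep300 held 13, 21, 15 and 25 CpG dinucleotides and 1, 3, 1 and 1 GC boxes. The table had entries for 43 of the 52 members, with 61 windows. Their median was 23 CpG per window, against 6 over all 32851 windows, which include those of non-coding genes. A GC box was present in 77% of the members' windows and in 32.7% of all. Windows of the same gene can overlap, as those of Men1 do, so the windows are not independent of each other. Of 4 further motifs searched on both strands, CCGGAAG (ETS), TTCCCGC (E2F), TGACGT (CRE) and CACGTG (E box), each was found in 6.56% of the members' windows, against 3.82% to 6.91% of all windows. All of the windows printed, of lower and higher members alike, held more CpG than the median over all windows.

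Most of the regulators did not pass the test, and those that did included the de novo DNA methyltransferases, the demethylase Kdm5b and the acetyltransferase Ep300. In MOP 12 of the 52 members fell, 7 rose, and for 33 the edgeR quasi-likelihood p, adjusted by Benjamini-Hochberg over all genes, was not under 0.05. Among all genes tested, 31.2% were called, 16.3% as higher and 14.9% as lower, against 36.5% of the members (13.5% higher and 23.1% lower). The members' median log2 fold change was -0.002 and that of all genes -0.008; their median absolute log2 fold change was 0.16, against 0.23 over all genes. Differences of at least 0.5 on the log2 scale were found in 6 members (11.5%, against 23.1% of all genes). A call with a difference of at least 2-fold was made for 1 member, Kdm5b, and for 6.83% of all genes, and 21 members (40.4%, against 25.4%) lay within 0.1 of 0. The members were also more abundant than most genes, at a median of 108 CPM (counts per 1000000, on TMM-scaled library sizes) against 30.5 CPM.

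**Figure D1:**
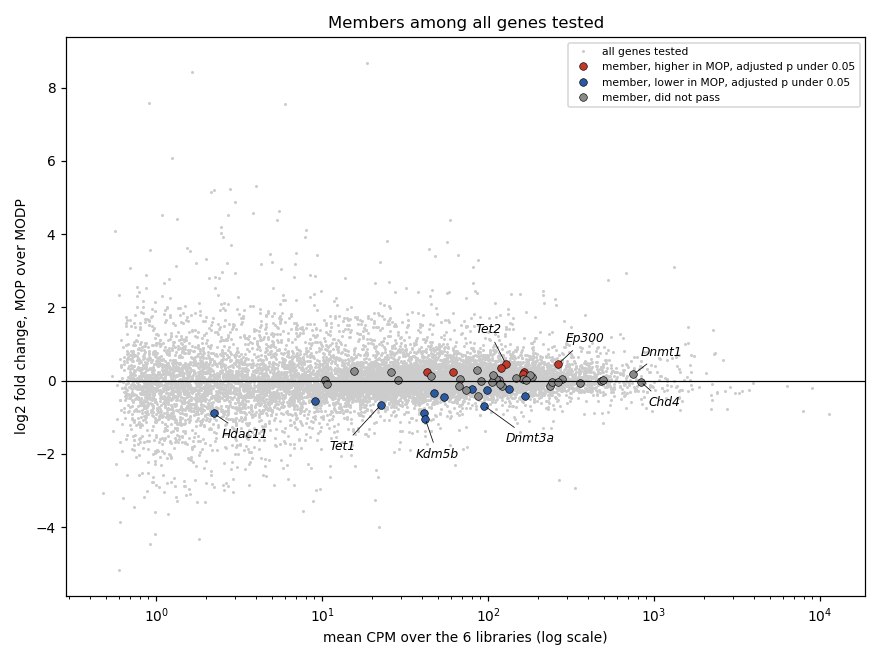
Log2 fold change of MOP over MODP (vertical axis) against mean CPM over the 6 libraries (horizontal log axis) for all 12850 genes tested (grey dots), with the 52 members as large points coloured by test result. Most members lie near 0 at middle to high abundance; Kdm5b, Hdac11, Dnmt3b and Dnmt3a lie lowest, Hdac11 at low abundance, and Tet2 and Ep300 highest.

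With upper-quartile scaling in place of TMM, 1 member (Ep300) was higher and 16 were lower; that scaling moved the median of all genes from -0.008 to -0.06. The 7 higher calls also fell to 2 without MODP replicate 1, 1 without MOP replicate 1 and 4 without MOP replicate 2. They fell to 2 without MODP replicate 3 and 3 without MOP replicate 3. In the same order of fits, the 12 lower calls fell to 8, 7, 9, 8 and 10. The share of all genes called fell from 31.2% to 20.8%, 17.6%, 22.5%, 21.8% and 22.4% in these fits. Without MODP replicate 2, 7 members were higher and 14 lower, and 36.7% of all genes were called. In every one of the 15 alternatives 8 members were called: Dnmt3a, Dnmt3b, Bmi1, Pcgf5, Kdm1a, Kdm5b and Arid1b as lower and Ep300 as higher. MOP and MODP values were fully separate in 26 members, 10 with MOP higher and 16 with MODP higher. Over all genes the shares were 47.6% in either direction, 23.8% with MOP higher and 23.8% with MODP higher.

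**Figure D2:**
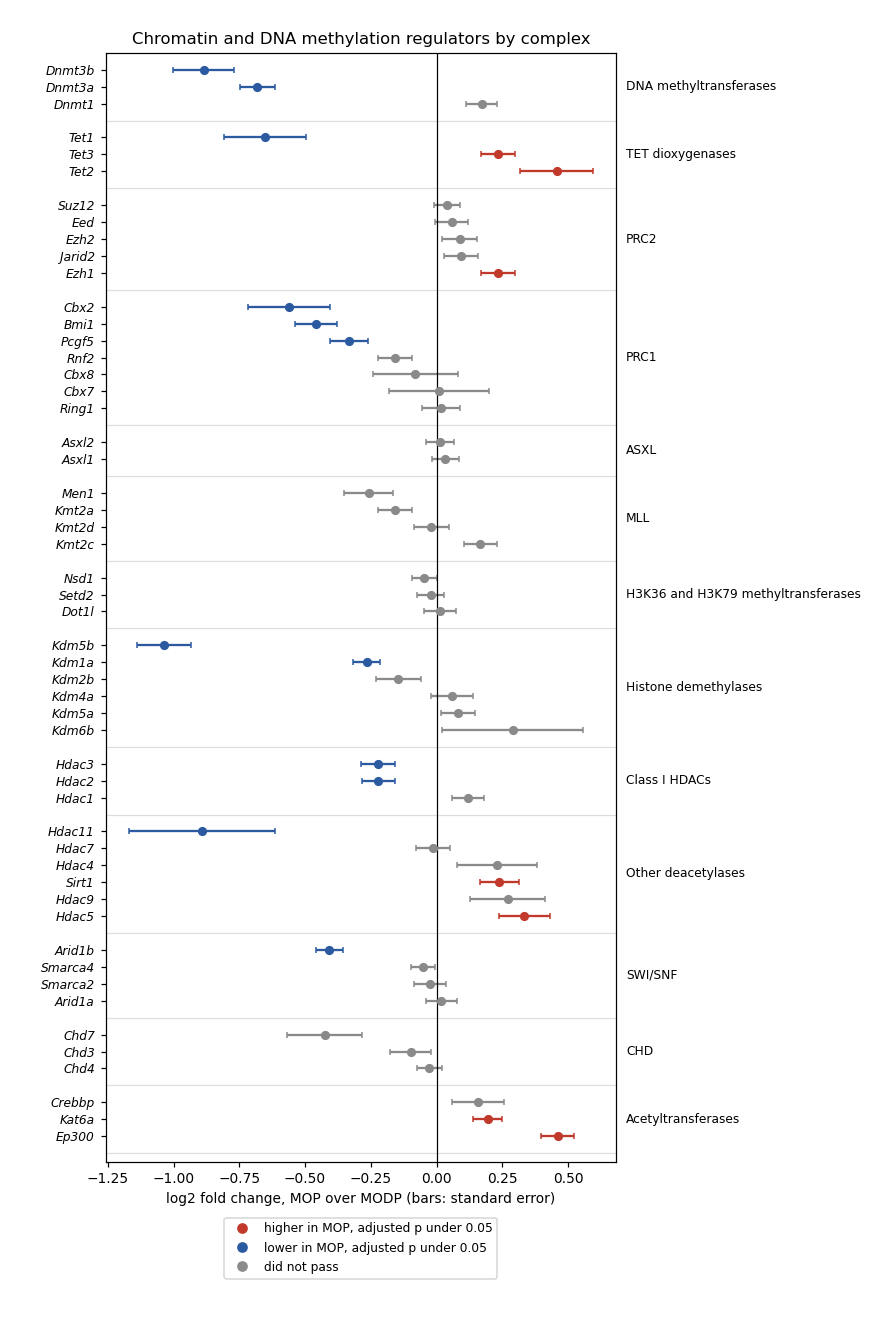
Log2 fold change of MOP over MODP (horizontal axis; bars are standard errors) for each of the 52 members, grouped by complex. Kdm5b is lowest at -1.04 and Ep300 highest at 0.46, while the ASXL genes and the H3K36 and H3K79 methyltransferases lie within 0.1 of 0.

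Library totals ran from 10701425 to 15892640 counts, so that 1 CPM stood for 10.6 to 15.6 counts. Counts of any pair of libraries within a group differed by more than sampling noise (chi-square of 7.35 to 34.7 per degree of freedom). Cd27, on which the cells were sorted, ranged over 35.4 to 38.9 CPM in MODP against 3.52 to 4.57 in MOP. The progenitor receptor genes also differed, by more than nearly all members: Flt3 and Kit were 3.64-fold and 2.45-fold lower in MOP and Csf1r was 1.71-fold higher (edgeR adjusted p = 4.3e-05, 0.00064 and 0.0022). Csf1r is less certain, since 15.1% of its exon bases overlap a gene on the other strand. Replicate 2 of each group stood apart on the second principal component (22.9% of the variance) and had the highest sums of 8 neutrophil markers, 15780 and 11020 CPM in MODP and MOP against 2045 to 4680 CPM in the other 4 libraries. Without both of these libraries, 7 members were higher and 12 lower, of which 4 and 10 were also called with all libraries. The 9 basophil and mast cell markers summed to 515 to 1092 CPM in the MODP libraries against 3155 to 5003 in MOP (7 of 9 called higher). The 9 erythroid markers summed to 139 to 518 CPM against 399.7 to 685, which overlap (5 of 9 called higher). Among them Hba-a1, Hba-a2, Hbb-bs and Hbb-bt are uncertain, with 59.4% to 91% of their 31-mers in other genes. The 8 T and NK markers summed to 219 to 269.6 CPM and 66.1 to 104 CPM (6 of 7 tested called lower). Nkg7 made up most of that sum, at 204 to 239.7 CPM in MODP libraries and 65.02 to 99.2 in MOP. None of the other 7, among them Cd3e and Klrb1c, exceeded 9.03 CPM in any MODP library or 1.34 CPM in any MOP library. Cd247, also in that list, is uncertain, with 85.4% of its 31-mers in other genes. Every marker of these lists was detected in every library, and the sums of 8 B cell markers overlapped between the groups, at 44.4 to 133 and 39.2 to 80.8 CPM. The part of these cells in the members' differences was not tested.

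The de novo DNA methyltransferases fell in MOP, while the maintenance enzyme did not pass the test. Dnmt3a (ENSMUSG00000020661), which methylates new sites and restrains stem cell self-renewal, stood at 116, 111 and 124 CPM in MODP replicates 1, 2 and 3 and at 68.99, 71.8 and 77.8 CPM in the MOP replicates. Every MODP library lay above every MOP library, and the gene was 1.60-fold lower in MOP (log2 -0.68 ± 0.07, here and below ± SE; edgeR adjusted p = 0.00045). Dnmt3b (ENSMUSG00000027478), its paralogue, stood at 54.7, 45.1 and 60.3 CPM in MODP replicates 1, 2 and 3 and at 27.9, 27.1 and 31.8 CPM in the MOP replicates. The groups were again apart, and Dnmt3b was 1.85-fold lower (log2 -0.89 ± 0.12, edgeR adjusted p = 0.0012).

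Dnmt1 (ENSMUSG00000004099), which copies methylation onto the new strand after replication, was far more abundant, at 715, 668 and 737 CPM in MODP replicates 1, 2 and 3 and at 825, 756 and 806 CPM in the MOP replicates. All 3 MOP libraries lay above the MODP libraries, yet the difference of log2 0.17 ± 0.06 did not pass (edgeR adjusted p = 0.06). With the replicate number of the count table's columns as a block it did (edgeR adjusted p = 0.013), as it did by DESeq2 (adjusted p = 0.029). Per exon length, Dnmt1 averaged 95.8 ± 4.72 RPKM in MODP and 108 ± 4.83 RPKM in MOP (SD, n = 3), Dnmt3b 10.4 ± 1.51 RPKM in MODP and 5.67 ± 0.486 RPKM in MOP, and Dnmt3a 7.02 ± 0.392 RPKM in MODP and 4.38 ± 0.271 RPKM in MOP. Uhrf1, which brings Dnmt1 to newly replicated DNA, rose in MOP (log2 0.32 ± 0.07, edgeR adjusted p = 0.011). It ranged over 282 to 337 CPM in the MODP libraries against 379 to 403 in MOP. Its counts are less certain, since 29.4% of its 31-mers also occur in other genes. Genes of DNA replication and mitosis moved the same way: 12 S phase markers summed to 3889 to 4262 CPM in the MODP libraries against 4479 to 4646 in MOP (7 called higher, 0 lower), and 12 markers of G2 and M phase to 2821 to 2984 and 3662 to 3737 CPM (6 called higher, 0 lower). Of these markers, Gins2 is uncertain, with 70.5% of its 31-mers in other genes, and Mcm7 and Ccnb1 had 47.6% and 46.9%. The part of these markers in the levels of Dnmt1 and Uhrf1 was not tested. Among 9 other genes of this group (readers of methylated DNA and Dnmt cofactors), 2 (22.2%) were higher and 0 lower, against 16.3% and 14.9% of all genes. Besides Uhrf1 it was Mbd2, a reader that recruits repressors to methylated DNA, at log2 0.39 ± 0.08 (edgeR adjusted p = 0.0064).

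**Figure D3:**
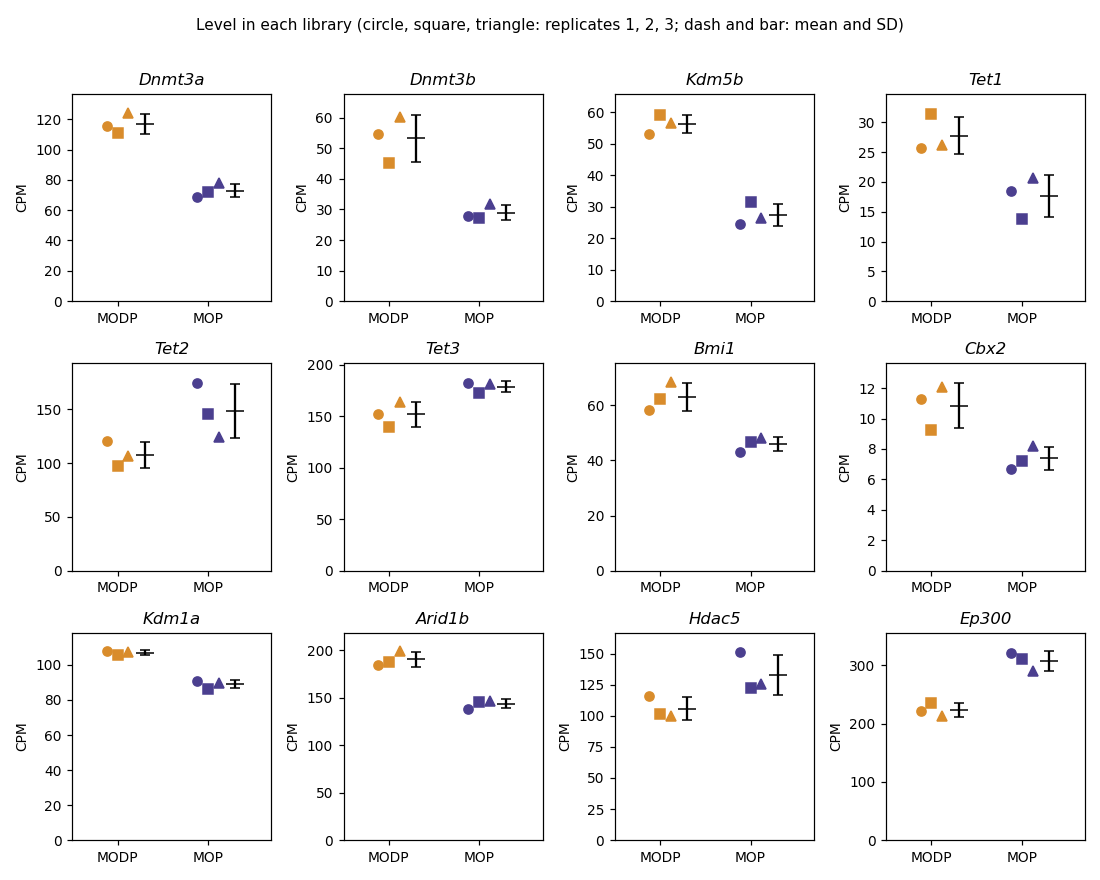
CPM (vertical axes, each from 0) of 12 members in each library of MODP and MOP; circle, square and triangle are replicates 1, 2 and 3, and the dash and bar beside them are the mean and SD. All 12 were chosen among the called members, and their MODP and MOP libraries do not overlap in any panel. Of all 52 members, 10 were apart with MOP higher and 16 with MODP higher. Over all genes tested, 47.6% were apart in either direction.

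TET dioxygenases moved in opposite directions. Tet1 (ENSMUSG00000047146), the TET enzyme best known from embryonic stem cells, stood at 25.6, 31.3 and 26.2 CPM in MODP replicates 1, 2 and 3 and at 18.5, 13.8 and 20.7 CPM in the MOP replicates. It was lower in every MOP library, by 0.65 ± 0.16 on the log2 scale (edgeR adjusted p = 0.015). Without MOP replicate 1 the adjusted p was 0.052. Tet2 (ENSMUSG00000040943), the main TET enzyme of blood cells, stood at 121, 96.98 and 106 CPM in MODP replicates 1, 2 and 3 and at 175, 146 and 124 CPM in the MOP replicates. Its lowest MOP library lay just above its highest MODP library, and the rise of log2 0.46 ± 0.14 was close to the threshold (edgeR adjusted p = 0.047). The call for Tet2 was kept among the fits without a library only without MOP replicate 3, with an edgeR adjusted p of 0.018 to 0.14 over all 6. Tet3 (ENSMUSG00000034832), the third enzyme, stood at 152, 139.7 and 164 CPM in MODP replicates 1, 2 and 3 and at 182, 173 and 182 CPM in the MOP replicates, a rise of log2 0.23 ± 0.07 (edgeR adjusted p = 0.028). Its call was lost without replicate 1 of either group or MOP replicate 3 (edgeR adjusted p 0.019 to 0.11 over the 6 fits). With upper-quartile scaling neither Tet2 nor Tet3 passed (edgeR adjusted p = 0.068 and 0.079). The ratio of the length-scaled levels of Tet2 and Tet1 was 2.84 to 4.32 in MODP libraries and 5.50 to 9.72 in MOP libraries. Of 5 tested genes linked to TET activity, Cxxc5, a CpG-binding zinc finger gene, fell, with 21.4 to 22.7 CPM over the MODP libraries against 7.49 to 10.2 in MOP (edgeR adjusted p = 4e-04). Idh2 and Idh1, the mitochondrial and cytosolic enzymes that make the TET cofactor 2-oxoglutarate, had log2 fold changes of -0.52 and 0.27 (edgeR adjusted p = 0.0022 and 0.016).

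Of 5 PRC2 members only Ezh1 passed the test. Ezh2 (ENSMUSG00000029687), its main H3 lysine 27 methyltransferase, stood at 193, 169 and 176 CPM in MODP replicates 1, 2 and 3 and at 200.5, 190.2 and 182 CPM in the MOP replicates. The groups overlapped and the difference of log2 0.09 ± 0.07 did not pass (edgeR adjusted p = 0.35). Suz12 and Eed, the scaffold and the reader of the mark, differed by log2 0.04 ± 0.05 and 0.06 ± 0.06, and Jarid2, a DNA-binding cofactor, by 0.09 ± 0.06; none passed (edgeR adjusted p = 0.6, 0.53 and 0.31). Ezh1 (ENSMUSG00000006920), the paralogue of Ezh2 that prevails in resting cells, stood at 37.6, 40.1 and 40.3 CPM in MODP replicates 1, 2 and 3 and at 46.02, 46.8 and 45.8 CPM in the MOP replicates. It was higher in every MOP library, by log2 0.23 ± 0.07 (edgeR adjusted p = 0.027). Leaving out any library other than MODP replicate 2 ended its call (edgeR adjusted p 0.029 to 0.1 over the 6 fits). Per exon length Ezh2 exceeded Ezh1 by 4.71 to 5.73 times in MODP libraries and 4.41 to 4.85 times in MOP libraries.

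Of 8 companions in PRC2, which include Rbbp4 and Rbbp7, 2 were lower (25%), 1 was higher (12.5%) and 5 did not pass. Over all genes 14.9% were lower and 16.3% higher. Some companions differed by more than any PRC2 member. Mtf2, a Polycomb-like protein that guides PRC2 to CpG islands, stood at 146, 139.9 and 162 CPM in MODP replicates 1, 2 and 3 and at 95.7, 93.8 and 94.3 CPM in the MOP replicates. The groups were far apart, and Mtf2 was 1.58-fold lower in MOP (edgeR adjusted p = 0.00039). Epop, which binds the same form of the complex, fell, with 16.5 to 19.7 CPM over the MODP libraries against 7.94 to 10.3 in MOP (log2 -1.02 ± 0.13, edgeR adjusted p = 0.0013). Phf19, a paralogue of Mtf2, was higher in MOP by log2 0.34 ± 0.10 (edgeR adjusted p = 0.038). Phf1, a further companion, had a larger log2 fold change of 0.71 ± 0.23 but did not pass (edgeR adjusted p = 0.053). Its level is less certain, since 39.3% of its exon bases overlap a gene on the other strand.

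In PRC1, 3 of 7 members (42.9%) fell and 0 rose, against 14.9% lower and 16.3% higher over all genes. Bmi1 (ENSMUSG00000026739), the PCGF subunit known for stem cell self-renewal, stood at 58.4, 62.4 and 68.4 CPM in MODP replicates 1, 2 and 3 and at 43.00, 46.8 and 48.01 CPM in the MOP replicates. Its groups did not overlap and its log2 fold change was -0.46 ± 0.08 (edgeR adjusted p = 0.004). Its counts are less certain, since 31.1% of its 31-mers also occur in other genes. Pcgf5 (ENSMUSG00000024805), the PCGF subunit of a variant PRC1, stood at 52.04, 51.7 and 55.03 CPM in MODP replicates 1, 2 and 3 and at 38.8, 43.4 and 43.8 CPM in the MOP replicates, lower in every MOP library (log2 -0.33 ± 0.07, edgeR adjusted p = 0.01). Cbx2 (ENSMUSG00000025577), a chromodomain subunit that binds H3 lysine 27 methylation and compacts chromatin, was low in both groups, at 11.3, 9.22 and 12.1 CPM in MODP replicates 1, 2 and 3 and at 6.70, 7.24 and 8.19 CPM in the MOP replicates. Its log2 fold change was -0.56 ± 0.16 (edgeR adjusted p = 0.026). Its call was lost without MODP replicate 1 or 3 or MOP replicate 1 or 2 (edgeR adjusted p 0.0089 to 0.1 over the 6 fits). The other chromodomain genes Cbx7 and Cbx8 had overlapping groups and log2 fold changes of 0.01 ± 0.19 and -0.08 ± 0.16 (edgeR adjusted p = 0.98 and 0.75). The ubiquitin ligase genes Ring1 and Rnf2 differed by log2 0.02 ± 0.07 and -0.16 ± 0.06 and did not pass (edgeR adjusted p = 0.88 and 0.092). Of 16 companions in PRC1, 15 did not pass, 0 rose and 1 fell. It was Pcgf6, the PCGF subunit of a further variant PRC1, which fell, with 15.99 to 18.5 CPM over the MODP libraries against 10.9 to 12.04 in MOP (edgeR adjusted p = 0.0066). Asxl1 and Asxl2, cofactors of the deubiquitinase Bap1 that reverses the mark of PRC1, did not pass, at log2 0.03 ± 0.05 and 0.01 ± 0.05 (edgeR adjusted p = 0.66 and 0.88). Of their 4 tested companions, 1, Foxk1, was higher, by log2 0.18 ± 0.05 (edgeR adjusted p = 0.023).

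No member of the MLL group passed the test. Kmt2a (ENSMUSG00000002028), the H3 lysine 4 methyltransferase that maintains Hox gene expression, stood at 249, 233 and 265 CPM in MODP replicates 1, 2 and 3 and at 232, 211 and 227 CPM in the MOP replicates. All MODP libraries lay above all MOP libraries by a small margin (log2 -0.16 ± 0.07, edgeR adjusted p = 0.1). Its cofactor Men1 stood at 81.4, 72.6 and 86.2 CPM in MODP replicates 1, 2 and 3 and at 64.8, 61.6 and 74.8 CPM in the MOP replicates, with overlapping groups (log2 -0.26 ± 0.09, edgeR adjusted p = 0.067). Kmt2c and Kmt2d, the methyltransferases of enhancers, differed by log2 0.17 ± 0.06 and -0.02 ± 0.07 (edgeR adjusted p = 0.071 and 0.85). With the replicate block, Kmt2a and Men1 were called as lower and Kmt2c as higher (edgeR adjusted p = 0.023, 0.0064 and 0.047). They were also called without MODP replicate 2 (edgeR adjusted p = 0.026, 0.02 and 0.012), and Men1 without MOP replicate 3 (0.038). Of 15 companions in this group, 3 (20%) were higher and 0 lower, against 16.3% and 14.9% of all genes. Setd1b, a further H3 lysine 4 methyltransferase, was higher by log2 0.26 ± 0.05 (edgeR adjusted p = 0.0082). Kmt2e was higher by 0.22 ± 0.06, and Ncoa6, a subunit of the Kmt2c and Kmt2d complexes, by 0.16 ± 0.05 (edgeR adjusted p = 0.021 and 0.048).

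The methyltransferase genes Setd2, Nsd1 (both H3 lysine 36) and Dot1l (H3 lysine 79) did not pass either, with log2 fold changes of -0.02 ± 0.05, -0.05 ± 0.05 and 0.01 ± 0.06 and edgeR adjusted p of 0.78, 0.51 and 0.9. Their CPM ranges were 233 to 249.6, 263 to 277 and 160.4 to 174 in MODP and 234 to 244, 258 to 265 and 160.3 to 180.3 in MOP. Of 8 companions, Nsd3, a paralogue of Nsd1, was higher by log2 0.39 ± 0.06 (edgeR adjusted p = 0.0018), and Aff1, an elongation factor gene and common fusion partner of KMT2A in leukaemia, was lower by 0.32 ± 0.07 (edgeR adjusted p = 0.011).

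Among histone demethylases 2 of 6 members (33.3%) fell and 0 rose, against 14.9% and 16.3% of all genes. Kdm5b showed the largest difference of all 52 members. Kdm5b (ENSMUSG00000042207), which removes H3 lysine 4 methylation from promoters, stood at 53.2, 58.98 and 56.6 CPM in MODP replicates 1, 2 and 3 and at 24.4, 31.4 and 26.4 CPM in the MOP replicates. Every MOP library lay far below every MODP library, and the gene was 2.05-fold lower in MOP (log2 -1.04 ± 0.10, edgeR adjusted p = 0.00039). Its paralogue Kdm5a did not pass, at 136 to 154 CPM in MODP against 144 to 161 in MOP (log2 0.08 ± 0.07, edgeR adjusted p = 0.39). Kdm1a (ENSMUSG00000036940), the enzyme LSD1 of the CoREST repressor complex, stood at 108, 105 and 107 CPM in MODP replicates 1, 2 and 3 and at 90.9, 86.4 and 89.7 CPM in the MOP replicates. The spread within each group was small beside the gap, and Kdm1a was lower by 0.27 ± 0.05 on the log2 scale (edgeR adjusted p = 0.0058).

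The remaining demethylases did not pass. Kdm6b (ENSMUSG00000018476), the H3 lysine 27 demethylase known from macrophage activation, stood at 78.2, 101 and 53.7 CPM in MODP replicates 1, 2 and 3 and at 94.5, 112 and 77.1 CPM in the MOP replicates. Its groups overlapped, with replicate 2 highest and replicate 3 lowest in both (log2 0.29 ± 0.27, edgeR adjusted p = 0.48). Within each pair of same-numbered libraries MOP was higher. With the replicate block the edgeR adjusted p was 0.011. Kdm2b, which recruits a variant PRC1 to CpG islands, and Kdm4a, an H3 lysine 9 demethylase, differed by log2 -0.15 ± 0.09 and 0.06 ± 0.08 (edgeR adjusted p = 0.23 and 0.62). Without MODP replicate 2, Kdm2b was lower (edgeR adjusted p = 0.013). Its counts are less certain, since 24.8% of its 31-mers also occur in other genes. Of 12 other demethylase genes, 2 (16.7%) were higher and 0 lower, against 16.3% and 14.9% of all genes. They were Phf8 and Kdm3b, at log2 0.22 ± 0.06 and 0.17 ± 0.05 (edgeR adjusted p = 0.026 and 0.039). Kdm3b is less certain, since 24.6% of its exon bases overlap a gene on the other strand.

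Of 3 class I deacetylases among the members, catalytic subunits of the main repressor complexes, 2 (66.7%) fell and Hdac1 did not pass. Over all genes 14.9% were lower. Hdac8, also of class I, was among the companions and did not pass (log2 -0.46 ± 0.15). Hdac2 (ENSMUSG00000019777) stood at 149, 132 and 152 CPM in MODP replicates 1, 2 and 3 and at 125, 123 and 124 CPM in the MOP replicates, and Hdac3, a further enzyme of the class, at 86.4, 87.95 and 85.2 CPM in MODP replicates 1, 2 and 3 and at 76.9, 68.7 and 77.1 CPM in the MOP replicates. Both were lower in every MOP library, by 0.22 ± 0.06 and 0.22 ± 0.06 on the log2 scale (edgeR adjusted p = 0.029 and 0.031). Each call was lost in all fits without a library except that without MODP replicate 2 (edgeR adjusted p 0.0025 to 0.11 for Hdac2 and 0.042 to 0.11 for Hdac3). Hdac1 (ENSMUSG00000028800) stood at 42.9, 44.1 and 43.2 CPM in MODP replicates 1, 2 and 3 and at 47.3, 46.2 and 48.01 CPM in the MOP replicates, log2 0.12 ± 0.06 with an edgeR adjusted p of 0.17. The level of Hdac1 is uncertain because 62.7% of its 31-mers (those of the longest transcript) occur in other genes. In the repressor complexes around these enzymes, 4 of 17 companions were higher (23.53%) and 3 lower (17.65%), against 16.3% and 14.9% of all genes. Rcor2, a CoREST subunit that partners Kdm1a, fell, with 5.36 to 5.90 CPM over the MODP libraries against 1.06 to 1.99 in MOP (log2 -1.85 ± 0.26, edgeR adjusted p = 0.0016), while its paralogue Rcor3 rose, with 15.7 to 18.7 CPM over the MODP libraries against 23.8 to 24.9 in MOP (edgeR adjusted p = 0.0069). Mta1, a NuRD subunit, was lower by 0.39 ± 0.06 on the log2 scale (edgeR adjusted p = 0.0032).

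Other deacetylases split, with 2 higher (33.3%), 1 lower (16.7%) and 3 that did not pass, against 16.3% higher and 14.9% lower over all genes. Hdac5 (ENSMUSG00000008855), a signal-dependent class IIa deacetylase, stood at 116, 101 and 99.6 CPM in MODP replicates 1, 2 and 3 and at 152, 122 and 126 CPM in the MOP replicates. It was higher in every MOP library (log2 0.33 ± 0.10, edgeR adjusted p = 0.033). The call was lost without MOP replicate 1 or 3 or MODP replicate 2 or 3 (edgeR adjusted p 0.033 to 0.11 over the 6 fits). The other class IIa genes Hdac4, Hdac7 and Hdac9 had log2 fold changes of 0.23 ± 0.15, -0.01 ± 0.07 and 0.27 ± 0.14 and did not pass (edgeR adjusted p = 0.3, 0.89 and 0.19). Hdac4 was called as higher without MODP replicate 2 (edgeR adjusted p = 0.015), and 22.4% of its exon bases overlap a gene on the other strand. Sirt1 (ENSMUSG00000020063), an NAD-dependent deacetylase, stood at 55.00, 56.5 and 56.9 CPM in MODP replicates 1, 2 and 3 and at 71.8, 66.3 and 60.8 CPM in the MOP replicates, a rise of log2 0.24 ± 0.07 (edgeR adjusted p = 0.039). Any of MODP replicates 1 and 3 and MOP replicates 1 and 2, when left out, ended this call (edgeR adjusted p 0.029 to 0.14 over the 6 fits).

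Hdac11 (ENSMUSG00000034245), the sole class IV deacetylase, was the least abundant member, at 2.38, 3.57 and 2.74 CPM in MODP replicates 1, 2 and 3 and at 1.77, 1.67 and 1.21 CPM in the MOP replicates. Its log2 fold change was -0.89 ± 0.28 (edgeR adjusted p = 0.04), and no fit without a library called it (edgeR adjusted p 0.059 to 0.12). It rests on 29, 38 and 39 counts in MODP replicates 1, 2 and 3 and 24, 26 and 16 in MOP. Of its exon bases 17.9% overlap a gene on the other strand, and 24.1% of its 31-mers occur in other genes. Of 7 companions, Sirt7 and Sirt2 were higher (28.6%, against 16.3% of all genes). Sirt3 and Sirt5, deacylases of mitochondria and not of chromatin, were lower (28.6%, against 14.9%). Sirt3 fell, with 47.02 to 49.7 CPM over the MODP libraries against 30.1 to 33.5 in MOP (log2 -0.58 ± 0.07, edgeR adjusted p = 0.001), and Sirt7, a nucleolar sirtuin, rose, with 80.1 to 88.7 CPM over the MODP libraries against 99.4 to 112 in MOP (edgeR adjusted p = 0.009). Sirt5 had an edgeR adjusted p of 0.012 at log2 -0.70 ± 0.16. Of its 31-mers 41% occur in other genes, and 12.7% of the exon bases of Sirt3 overlap a gene on the other strand.

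Of 4 SWI/SNF members, 1 fell (25%, against 14.9% of all genes), the ARID subunit Arid1b, and 3 did not pass. Smarca4 (ENSMUSG00000032187), the main ATPase of the complex (BRG1), stood at 369, 365 and 363 CPM in MODP replicates 1, 2 and 3 and at 354, 349 and 356 CPM in the MOP replicates. The groups were separated by a few CPM and the difference of log2 -0.05 ± 0.05 did not pass (edgeR adjusted p = 0.44). Smarca2, the other ATPase (BRM), was at 102 to 114 and 103 to 108 CPM (log2 -0.02 ± 0.06, edgeR adjusted p = 0.8). Arid1a (ENSMUSG00000007880) stood at 511, 472 and 482 CPM in MODP replicates 1, 2 and 3 and at 523, 475 and 485 CPM in the MOP replicates, with overlapping groups (log2 0.02 ± 0.06, edgeR adjusted p = 0.85). Arid1b (ENSMUSG00000069729), which takes the place of Arid1a in part of the complexes, stood at 184, 188 and 199 CPM in MODP replicates 1, 2 and 3 and at 138, 146 and 147 CPM in the MOP replicates. Every MOP library was lower, by 1.33-fold on average (log2 -0.41 ± 0.05, edgeR adjusted p = 0.0012). The ratio of the length-scaled levels of Arid1a and Arid1b was 2.65 to 3.05 in MODP and 3.58 to 4.14 in MOP.

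Companions of SWI/SNF moved in both directions. Of 18 tested, 5 were lower (27.8%), 4 higher (22.2%) and 9 did not pass, against 14.9% lower and 16.3% higher over all genes. Bcl7a and Smarcd1, subunits of the complex, were lower by 0.32 ± 0.07 and 0.34 ± 0.07 on the log2 scale (edgeR adjusted p = 0.007 and 0.0089), and Bcl7c by 0.38 ± 0.09 (0.012). Of the exon bases of Smarcd1, 12.7% overlap a gene on the other strand. Smarcd3 and Dpf1 were below the count filter. In the CHD group no member passed. Chd4 (ENSMUSG00000063870), the ATPase of NuRD, was among the most abundant members, at 843, 821 and 851 CPM in MODP replicates 1, 2 and 3 and at 821, 813 and 835 CPM in the MOP replicates (log2 -0.03 ± 0.05, edgeR adjusted p = 0.71), and Chd3 differed by log2 -0.10 ± 0.08 (0.38). Chd7 (ENSMUSG00000041235), a remodeller of enhancers, stood at 90.8, 107 and 101 CPM in MODP replicates 1, 2 and 3 and at 59.7, 88.8 and 73.6 CPM in the MOP replicates; its lowest MODP library lay just above its highest MOP library (log2 -0.43 ± 0.14, edgeR adjusted p = 0.064). In 7 of the 15 alternatives Chd7 was called as lower, with adjusted p of 0.012 by DESeq2, 0.047 by limma-voom, 0.038 with upper-quartile scaling in edgeR and 0.0015 with the replicate block. The others were the block of the title numbers (0.0086) and the fits without MOP replicate 2 (0.011) and without both replicate 2 libraries (0.011). Of 11 tested CHD and ISWI companions, 3 were lower and 0 higher, namely Chd9, Chd6 and the ISWI subunit Baz1a, at log2 -0.45 ± 0.06, -0.34 ± 0.07 and -0.17 ± 0.05 (edgeR adjusted p = 0.0017, 0.0086 and 0.032); Smarca1 was below the count filter.

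Of 3 acetyltransferases, 2 rose (66.7%, against 16.3% of all genes), though with upper-quartile scaling only Ep300 did. Ep300 (ENSMUSG00000055024), which encodes p300, the coactivator that acetylates histones at enhancers, stood at 222, 236 and 212 CPM in MODP replicates 1, 2 and 3 and at 322, 310.4 and 289.5 CPM in the MOP replicates. The groups were well apart and Ep300 was 1.38-fold higher in MOP (log2 0.46 ± 0.06, edgeR adjusted p = 0.0015), a rise close in size to that of Tet2. Its paralogue Crebbp (CBP) stood at 106, 112 and 87.2 CPM in MODP replicates 1, 2 and 3 and at 122, 111 and 108 CPM in the MOP replicates, with overlapping groups (log2 0.16 ± 0.10, edgeR adjusted p = 0.26). Per exon length, the ratio of Ep300 to Crebbp was 1.98 to 2.31 in MODP libraries and 2.50 to 2.66 in MOP libraries. Kat6a (ENSMUSG00000031540), also called MOZ and needed for blood stem cells, stood at 147, 156 and 152 CPM in MODP replicates 1, 2 and 3 and at 173, 166 and 182 CPM in the MOP replicates, a rise of log2 0.19 ± 0.05 (edgeR adjusted p = 0.027). Leaving out replicate 1 or 3 of either group ended that call (edgeR adjusted p 0.019 to 0.1 over the 6 fits). Of 12 companions, 2 were higher (16.7%) and 1 lower (8.33%), against 16.3% and 14.9% of all genes. Brpf1, the scaffold of the Kat6a complex, and Kat2b (PCAF) rose by log2 0.30 ± 0.05 and 0.41 ± 0.09 (edgeR adjusted p = 0.0043 and 0.0087). Kat2a (GCN5), the paralogue of Kat2b, fell by 0.49 ± 0.09 on the log2 scale (edgeR adjusted p = 0.0044).

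Over all 13 groups, 142 of 147 companion genes were tested, of which 23 (16.2%) were higher, 20 (14.1%) lower and 99 did not pass. Both shares are close to those of all genes (16.3% and 14.9%). With the column numbers as a replicate block, 31 companions were higher and 26 lower, and 41% of all genes were called. The companions' median log2 fold change was -0.004, against -0.008 over all genes. Asxl3 and Cxxc4, counted among the 147, were matched to no row by symbol and so were not analysed here. The higher companions numbered 11 to 15 in the fits without MODP replicate 1 or 3 or any 1 of the MOP replicates, and 14 with upper-quartile scaling.

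**Figure D4:**
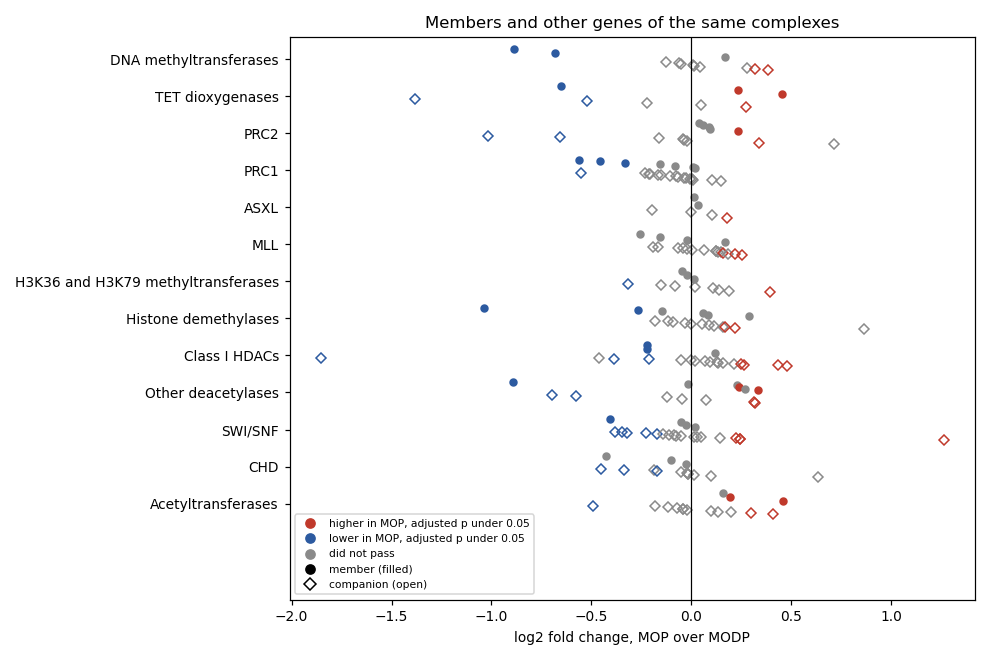
Log2 fold change of MOP over MODP (horizontal axis) for members (filled circles) and companion genes (open diamonds) of each group, coloured by test result. Companions spread to both sides of 0 in most groups, with Rcor2 lowest at -1.85 and Dpf3 highest at 1.26. Both rest on few counts, 14 to 84 per library for Rcor2 and 5 to 30 for Dpf3.

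On a scale per exon length (RPKM, using the union of exons in GENCODE M21), the members spanned a wide range of levels. Dnmt1 and Chd4 were the highest, followed by Smarca4, Suz12 and Arid1a, and Hdac11, Hdac9, Tet1, Hdac4 and Cbx7 were among the lowest. Chd4 averaged 104 ± 1.98 RPKM in MODP and 103 ± 1.36 RPKM in MOP (SD, n = 3), Smarca4 56.5 ± 0.439 RPKM in MODP and 54.5 ± 0.562 RPKM in MOP, Suz12 55.4 ± 1.71 RPKM in MODP and 56.9 ± 1.46 RPKM in MOP and Arid1a 42.5 ± 1.76 RPKM in MODP and 43.1 ± 2.17 RPKM in MOP. At the other end Hdac9 averaged 0.960 ± 0.159 RPKM in MODP and 1.16 ± 0.128 RPKM in MOP and Hdac11 0.753 ± 0.159 RPKM in MODP and 0.402 ± 0.077 RPKM in MOP. Of the genes with the highest level of their group in MODP, Dnmt1, Suz12, Rnf2, Asxl1, Kmt2d, Setd2, Hdac7, Smarca4 and Chd4 did not pass, while Tet3, Kdm1a, Hdac2 and Kat6a were called. Members had longer exons than most genes, with a median of 8574 bases against 4338 over all tested genes; in the fifth of genes with the longest exons, which held 28 of the members, 20.5% were higher, 15.6% lower and the median log2 fold change was 0.014.

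**Figure D5:**
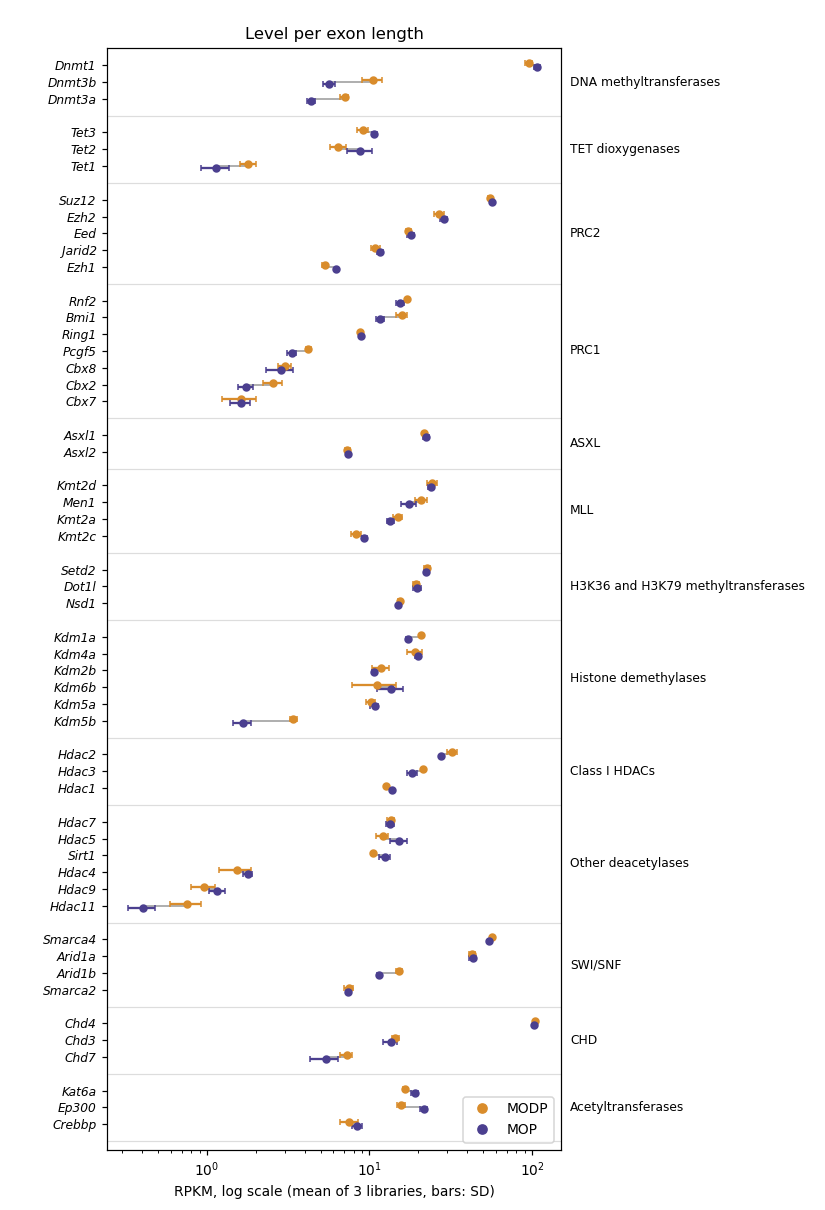
Mean RPKM of MODP and MOP (horizontal log axis; bars are the SD of 3 libraries) for each of the 52 members, sorted within each group by the level in MODP. Points of both populations lie almost on each other for most members, and the widest gaps are those of Kdm5b, Hdac11, Dnmt3b, Dnmt3a and Tet1.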

How the data were processed

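The authors deposited raw read counts per Ensembl gene, not normalized, for 6 libraries; the labels' protocols name a TruSeq RNA kit. TopHat 1.4 and HTSeq are named in the submitters' processing notes; the genome build, annotation and strand setting were not found in the labels or file header, so overlapping antisense genes cannot be told apart. Groups came from the cell type label. Symbols were matched by identifier to GENCODE M21 (1431 of 22271 without a symbol). Genes passing filterByExpr (12850) were tested with edgeR 4.0.16 (R 4.3.3; quasi-likelihood, robust, TMM, group only), with Benjamini-Hochberg adjustment over all of them at 0.05. Fold changes and standard errors come from that fit, and CPM and RPKM from TMM-scaled library sizes. The test was tried on simulated counts: with gene-wise dispersions the share of false calls was above the nominal rate, so calls near the threshold are the least certain. DESeq2 1.42.0 and limma-voom (limma 3.58.1), other scalings, filters, blocks and left-out libraries were alternatives.

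Members and lists were chosen with earlier results of these data known. Named in full were members past the threshold with an absolute log2 fold change of at least 0.5 and 13 fixed lead genes (Dnmt1, Dnmt3a, Tet2, Ezh1, Ezh2, Bmi1, Kmt2a, Kdm6b, Hdac1, Hdac2, Smarca4, Arid1a, Ep300), 18 in all; up to 3 companions per group were taken by smallest adjusted p. Other members given in full, and companions beyond these, were chosen after their values were seen. A companion that this rule selects is not reported here. A gene with at least 50% of its 31-mers in other genes was held uncertain.

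The third library of each group is numbered 1 in its sample title and 3 in its count column. Deviations from the group means were compared over 9351 genes (mean log2 CPM above 3). They correlated at 0.59, 0.61 and 0.51 for libraries sharing a column number and at -0.45 to 0.05 for others. The column numbers were taken as pairs only in the replicate block alternative. The reported fit was group only, so its standard errors and adjusted p-values do not use this pairing.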

Additional observations from a re-analysis of the deposited data

How the results depend on the processing

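Of the 19 called members, 8 kept their call in all 15 alternatives and 11 lost it in at least 1, each in at least 1 fit without a library; no call changed direction. Members called as higher were 7 (1 to 7 over the 6 fits without a library) and lower 12 (7 to 14), companions higher 23 (11 to 22) and lower 20 (15 to 24), and all genes higher 2095 (1281 to 2524) and lower 1913 (1036 to 2275). The members' median log2 fold change was -0.002. Upper-quartile scaling gave 1 higher member, 14 higher companions and a median of -0.057; a scaling by construction moves every gene one way. With the replicate block of the column numbers 10 members were higher and 15 lower (companions 31 and 26), which included all 19 of the reported calls and added Dnmt1, Kmt2a, Kmt2c, Men1, Kdm6b and Chd7; the block of the title numbers gave 7 and 15 and lost Tet2. DESeq2 gave 7 and 12 (6 and 11 of the reported calls), limma-voom 7 and 13, and no filter on low counts 5 and 12; the cause of these changes was not tested. Fits without a library have fewer samples. Among members, depth limits Hdac11, Cbx2, Cbx7 and Cbx8 most, at 16 to 175 counts per library. The companions Dpf3 and Rcor2 rest on 5 to 30 and 14 to 84 counts per library.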
